A study of Drosophila melanogaster with 3 samples.

Results

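The 4 genes of larval serum proteins (Lsp1alpha, Lsp1beta, Lsp1gamma and Lsp2) and 2 fat body protein genes (Fbp1 and Fbp2) were followed through 3 RNA libraries of Drosophila larval fat tissue. The 6 genes were picked by name among 16509 counted genes, and all 6 were counted in every library. Larval serum proteins are hexamerins, storage proteins of the hemocyanin family that the fat body secretes into the hemolymph while the larva feeds. The Lsp1 genes encode the subunits that assemble into LSP-1 hexamers, and Lsp2 encodes the subunit of LSP-2. Before the puparium forms, the fat body takes serum proteins back up and keeps them in granules as a reserve of amino acids for metamorphosis. Fbp1 encodes the fat body receptor for LSP-1, itself a member of the hexamerin superfamily and a known target of the steroid hormone ecdysone. Fbp2 encodes a protein that resembles alcohol dehydrogenase and is no receptor.

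The genotypes were Dcg > Hpo, which overexpresses the Hippo kinase gene hpo, Dcg > Hpo-RNAi, in which hpo was knocked down, and Dcg/+, which carries the Dcg-Gal4 driver alone. All 3 genotypes carry Dcg-Gal4, a driver of the fat body that is also known to be active in blood cells. Each library was made by QuantSeq, a kit that reads the 3′ ends of polyadenylated RNA, from RNA of pooled tissue, and each genotype has 1 library. The study names dissected fat bodies from larvae of the third instar as the tissue, whereas adult heads appear in the labels' extraction text, and sex was not given in the labels.

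Library totals were 23227940 counts in Dcg > Hpo, 23524682 in Dcg > Hpo-RNAi and 21918672 in Dcg/+. With 1 library per genotype no spread between animals or preparations could be estimated and no test was possible. Every interval is an exact (Clopper-Pearson) 95% interval and covers counting error only. In such pooled tissue, fewer cells of a type and less RNA per cell cannot be told apart. The targeted gene matched the labels: hpo had 11568 counts in the Dcg > Hpo library and 182 in Dcg > Hpo-RNAi, against 289 in Dcg/+. The ratios of library shares were 37.8 (33.6 to 42.6) and 0.587 (0.485 to 0.709). Markers of tissues were called against Dcg/+ by the 2-fold rule given below. Over all genes measured, that rule called 2155 of 11834 higher and 2702 lower in Dcg > Hpo. In Dcg > Hpo-RNAi it called 900 of 11521 higher and 1047 lower. All 10 measured fat body markers were detected in each library. Their summed share was 1.65% in Dcg > Hpo, 0.811% in Dcg > Hpo-RNAi and 1.12% in Dcg/+. Rfabg and Adh gave most of this sum in every library, with 240244 and 124422 of 383447 counts under overexpression. Single markers varied. Dot (0.285) and tobi (0.219), at 16 counts each, were called lower under overexpression, although the sum was higher there. The knockdown library had CG3523 (0.178) and AkhR (0.369) called lower. No fat body marker was called higher against Dcg/+, and the median log2 ratios were 0.39 for overexpression and -0.36 for knockdown. The 13 listed genes of adult heads, yolk genes included, summed to 562 counts in Dcg > Hpo, 4228 in Dcg > Hpo-RNAi and 1706 in Dcg/+. The yolk gene Yp3 had 122, 3918 and 1452 in the same order, and norpA, an eye phospholipase gene, 308, 175 and 124. Most of the sum came from norpA in Dcg > Hpo and from Yp3 in Dcg > Hpo-RNAi and Dcg/+. The rhodopsin gene ninaE had 6, 5 and 18 counts in that order. The libraries also differed in genes of some other tissues. The summed share of neuron markers was close, at 0.0298%, 0.0240% and 0.0245%, but its largest part was Syt1, with 2553, 4143 and 4454 counts. Single neuron markers differed more. In the overexpression library 2-fold higher values were called for 7 of 8, with a median log2 ratio of 2.27. In the knockdown library 3 of 8 had 2-fold lower values and 1 had a 2-fold higher value, with a median of -0.15. Salivary gland markers took 2.52% of the counts in the Dcg > Hpo library and 0.0678% in Dcg > Hpo-RNAi, against 5.14% in Dcg/+, and 2-fold lower values were called for 4 of 8 in the overexpression and for 8 of 8 in the knockdown library. Testis markers took 0.00118%, 0.0840% and 0.0761% in the same order, with 13 of 13 called lower in Dcg > Hpo, where aly and can were at 0 counts. Gut markers took 0.101% in Dcg > Hpo, 0.00784% in Dcg > Hpo-RNAi and 0.00319% in Dcg/+, and muscle markers 0.127%, 0.00640% and 0.0139%, with 10 of 10 measured muscle markers called higher in Dcg > Hpo. The part of these tissues in the results below was not tested.

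The 6 genes lie apart from each other in the genome. In dm6 coordinates, Lsp1alpha (FBgn0002562) spans bases 12490291 to 12492982 of chromosome X, plus strand. Lsp1beta (FBgn0002563) spans 898500 to 901316 of arm 2L and Lsp1gamma (FBgn0002564) 66430 to 68995 of arm 3L, both on the plus strand. Each Lsp1 gene has 2 exons, so the subunits of 1 hexamer are encoded on 3 chromosome arms. Lsp2 (FBgn0002565) is a gene of 1 exon at 12129393 to 12131869 of 3L, plus strand. Fbp1 (FBgn0000639) spans 14094589 to 14098053 of 3L on the minus strand, and Fbp2 (FBgn0000640) 9426784 to 9427917 of 2L on the plus strand. An annotated antisense RNA, asRNA:CR11538, overlaps 2096 bases of Lsp2. The use of strand in the counting is not given in the sources used here, so reads of this RNA from the overlap could have been counted as Lsp2. The annotated 3′ ends, where the kit reads, lie outside the overlap. They are at 12131869 for Lsp2 and at 12129103 for this RNA, which is on the minus strand.

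The 6 genes together took nearly the same share of each library. Their sum was 4257619 counts or 18.3% in Dcg > Hpo, 4198360 or 17.8% in Dcg > Hpo-RNAi, and 3979343 or 18.2% in Dcg/+. The ratio of the summed share to Dcg/+ was 1.01 in the Dcg > Hpo library and 0.983 in Dcg > Hpo-RNAi, and other scalings placed these sums on either side of 1. Lsp1beta was the most abundant gene of all 3 libraries. Among the 10 most abundant genes were 4 of the 6 in Dcg > Hpo, 4 in Dcg > Hpo-RNAi and 5 in Dcg/+.

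**Figure D1:**
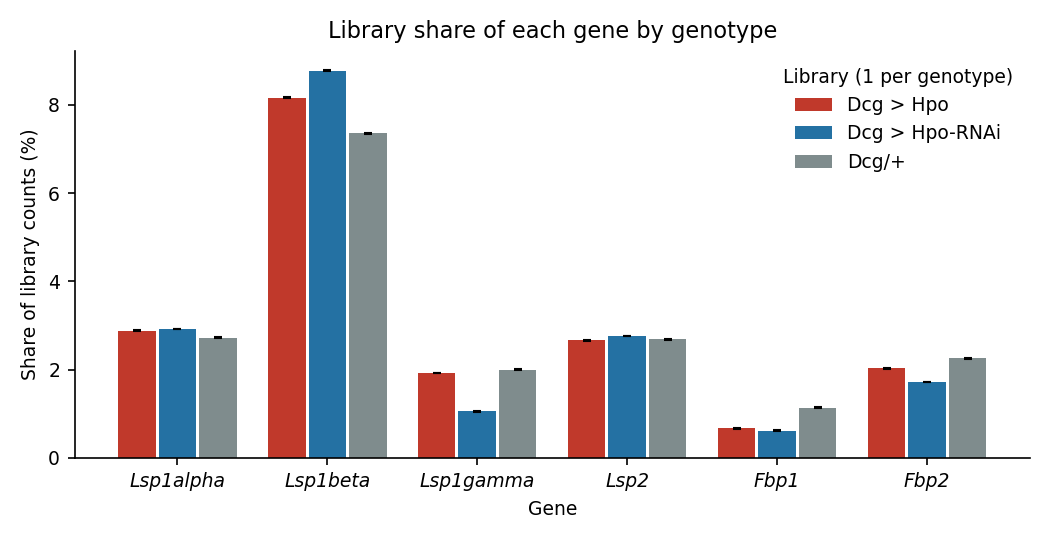
Share of library counts (%) of each of the 6 genes in the 3 libraries, 1 per genotype (Dcg > Hpo, Dcg > Hpo-RNAi, Dcg/+); error bars are exact 95% intervals of counting error. Lsp1beta stood highest in every library at 7.36 to 8.77%, Lsp1gamma was lowest in Dcg > Hpo-RNAi (1.05%), and Fbp1 was low in both Dcg > Hpo (0.667%) and Dcg > Hpo-RNAi (0.619%).

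Among the serum protein genes, 3 differed little between libraries and Lsp1gamma stood apart. Lsp1alpha had 669750 counts in the Dcg > Hpo library and 687595 in Dcg > Hpo-RNAi, against 596945 in Dcg/+. These were 2.88%, 2.92% and 2.72% of the libraries. The ratios to Dcg/+ were 1.06 (1.055 to 1.062) in the Dcg > Hpo library and 1.07 (1.070 to 1.077) in Dcg > Hpo-RNAi. Lsp1beta, the subunit gene with the most counts, had 1895967 in the Dcg > Hpo library and 2063983 in Dcg > Hpo-RNAi, against 1612401 in Dcg/+. Its ratios were 1.11 (1.107 to 1.112) in the Dcg > Hpo library and 1.19 (1.190 to 1.195) in Dcg > Hpo-RNAi. Lsp2, the gene of the other hexamer, had 618473 counts in the Dcg > Hpo library and 649743 in Dcg > Hpo-RNAi, against 588033 in Dcg/+, or 2.66%, 2.76% and 2.68% of the libraries. Its ratios were 0.992 and 1.03. With library totals these were the nearest to 1 of the 6 genes, whereas with TMM factors Lsp1alpha and Lsp1beta (0.937 and 0.982) were nearer than Lsp2 (0.878) in Dcg > Hpo and Lsp1alpha (1.008) was nearer than Lsp2 (0.967) in Dcg > Hpo-RNAi.

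Lsp1gamma, the subunit gene with the fewest counts, had its lowest share in the knockdown library, a difference from Dcg > Hpo that quantile normalization does not keep (direct ratio 1). It had 447034 counts in the Dcg > Hpo library and 247413 in Dcg > Hpo-RNAi, against 438571 in Dcg/+. The shares were 1.92% in Dcg > Hpo, 1.05% in Dcg > Hpo-RNAi and 2.001% in Dcg/+. The ratio to Dcg/+ was 0.962 (0.958 to 0.966) in the Dcg > Hpo library and 0.526 (0.523 to 0.528) in Dcg > Hpo-RNAi. Set directly against each other, Dcg > Hpo over Dcg > Hpo-RNAi gave 1.83 (1.821 to 1.839). In that direct comparison the other serum protein genes were closer to 1, at 0.987 for Lsp1alpha, 0.930 for Lsp1beta and 0.964 for Lsp2.

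Fbp1, the receptor gene, was the least abundant of the 6 and was low in both manipulated libraries. It had 154923 counts in the Dcg > Hpo library and 145629 in Dcg > Hpo-RNAi, against 249683 in Dcg/+. These were 0.667%, 0.619% and 1.14% of the libraries. The ratios to Dcg/+ were 0.586 (0.582 to 0.589) in the Dcg > Hpo library and 0.543 (0.540 to 0.547) in Dcg > Hpo-RNAi. The 2 ratios share the Dcg/+ library, and the direct ratio of Dcg > Hpo to Dcg > Hpo-RNAi was 1.08 (1.070 to 1.085). With markers of other tissues left out of the totals, the ratios to Dcg/+ were 0.571 and 0.516. With only these libraries, low Fbp1 in 2 libraries and high Fbp1 in the Dcg/+ library cannot be told apart. Fbp2 had 471472 counts in the Dcg > Hpo library and 403997 in Dcg > Hpo-RNAi, against 493710 in Dcg/+, or 2.03%, 1.72% and 2.25%. Its ratios were 0.901 (0.898 to 0.905) in the Dcg > Hpo library and 0.762 (0.759 to 0.766) in Dcg > Hpo-RNAi.

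A gene was called where its ratio was at least 2, or at most 0.5, its interval lay clear of 1 and one of the libraries held at least 10 counts of it. None of the 6 genes was called in any of the 3 comparisons when scaled by library totals. By the same rule 41.0% of 11834 genes were called for Dcg > Hpo over Dcg/+ and 16.9% of 11521 for Dcg > Hpo-RNAi over Dcg/+. For Dcg > Hpo over Dcg > Hpo-RNAi it was 43.7% of 11906. At a threshold of 1.5-fold, 1 of the 6 genes was lower in Dcg > Hpo than in Dcg/+ (Fbp1), as were 27.4% of all genes. In Dcg > Hpo-RNAi, 2 of the 6 were lower than in Dcg/+ (Lsp1gamma and Fbp1), as were 14.9% of all genes. In the direct comparison 1 of the 6 was 1.5-fold higher in Dcg > Hpo (Lsp1gamma), as were 27.6% of all genes. The median log2 ratio of the 6 genes was -0.03 in the Dcg > Hpo library and -0.17 in Dcg > Hpo-RNAi, beside 0.09 and 0.08 over all genes.

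Since this background includes many genes with few counts, the 6 genes were also set beside the other genes that reached 10000 counts in one of the libraries. For Dcg > Hpo these were 268 genes, of which 14.6% were 1.5-fold lower than in Dcg/+, and for Dcg > Hpo-RNAi 259 genes, of which 10.4% were. In Dcg > Hpo, 30 of the 268 had a lower ratio than Fbp1. In Dcg > Hpo-RNAi, 21 of the 259 had a lower ratio than Lsp1gamma and 21 a lower one than Fbp1. Lsp1alpha, Lsp1beta and Lsp2 lay inside these distributions, with 91 to 146 of 268 genes below them in Dcg > Hpo and 103 to 161 of 259 in Dcg > Hpo-RNAi.

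**Figure D2:**
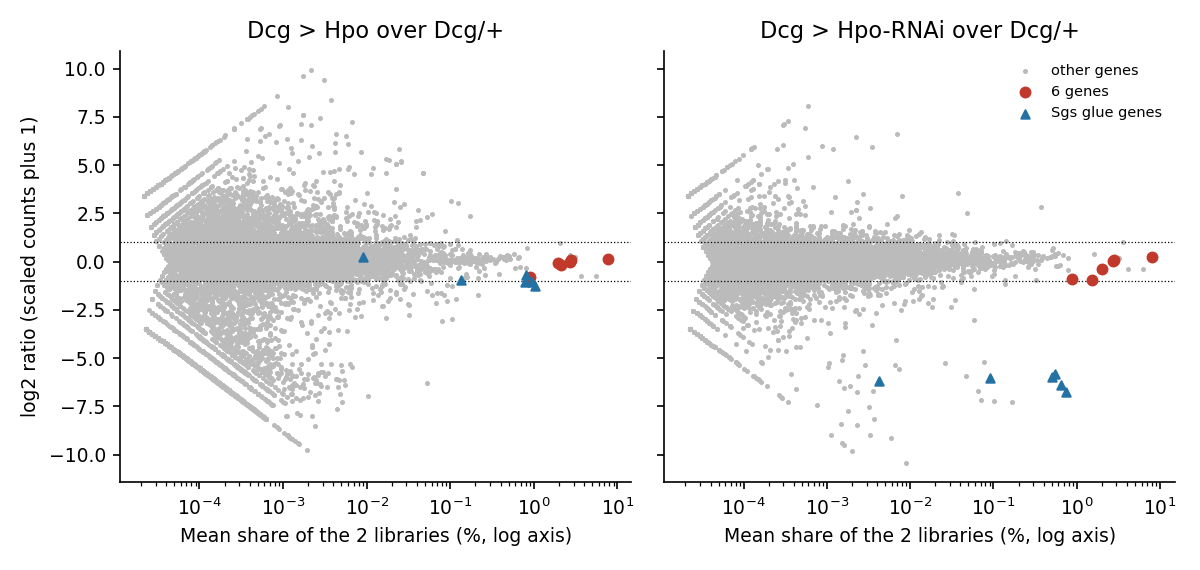
log2 ratio to Dcg/+ (scaled counts plus 1) against the mean share of both libraries (%, log axis) for every gene that reached 10 counts in one of the libraries; red circles are the 6 genes, blue triangles the Sgs glue genes of the salivary gland, and dotted lines mark 2-fold. All 6 genes lie at the abundant end between the dotted lines, with Lsp1gamma and Fbp1 nearest to the lower line for Dcg > Hpo-RNAi, far above the glue genes.

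The side of 1 on which a ratio lay depended on the scaling for 3 of the 6 genes. TMM factors gave a median log2 ratio of all genes of -0.08 in Dcg > Hpo, beside 0.09 with library totals. Of the 12 ratios to Dcg/+, 6 lay on 1 side of 1 under all 6 other scalings, namely those of Lsp1gamma, Fbp1 and Fbp2, which were below 1 throughout. Ratios of Lsp1alpha and Lsp2 crossed 1, and those of Lsp1beta reached or crossed it. Lsp1gamma in Dcg > Hpo-RNAi was called lower with TMM factors (0.494), with median-of-ratios factors (0.4996) and with totals that leave out markers of other tissues (0.4989). Quantile normalization gave Lsp1gamma 0.775 in both comparisons with Dcg/+ and a direct ratio of 1, since the gene ranked 11th in both manipulated libraries and 10th in Dcg/+. It moved Fbp1 in Dcg > Hpo to 0.910 by construction, since it gives genes of the same rank the same value, and Fbp1 ranked 16th in Dcg > Hpo, 19th in Dcg > Hpo-RNAi and 14th in Dcg/+.

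**Figure D3:**
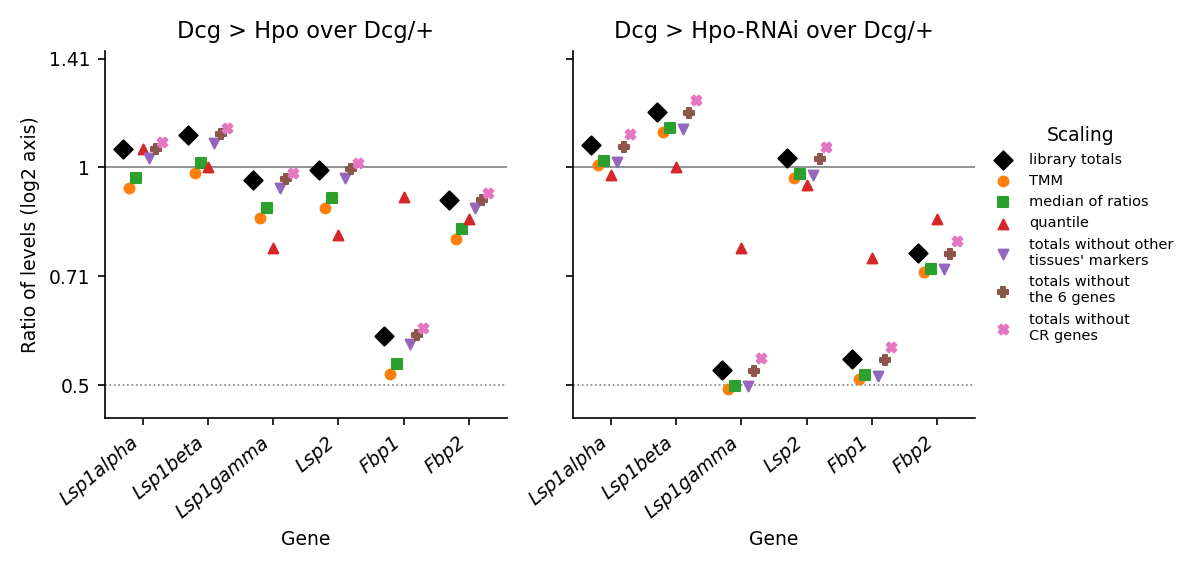
Ratio of levels to Dcg/+ (log2 axis) of the 6 genes in Dcg > Hpo (left) and Dcg > Hpo-RNAi (right), scaled by library totals (black diamonds) or by 6 other scalings; the solid line marks 1 and the dotted line 0.5. Fbp1 lies below 1 under every scaling in both panels, from 0.518 to 0.910 and from 0.511 to 0.750, while the points of Lsp1alpha and Lsp2 fall on both sides of 1.

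Ratios between genes of 1 library need no scaling by totals, and they showed a changed make-up of the Lsp1 subunit transcripts in the knockdown. Lsp1gamma made up 14.8% of the Lsp1 counts in the Dcg > Hpo library and 8.25% (8.22 to 8.28%) in Dcg > Hpo-RNAi, against 16.6% in Dcg/+. Lsp1beta made up 62.9%, 68.8% and 60.9% in the same order. Lsp1alpha kept the narrowest range, with 22.2% in Dcg > Hpo, 22.9% in Dcg > Hpo-RNAi and 22.5% in Dcg/+. The Lsp1 sum was 12.97% of the counts in the Dcg > Hpo library and 12.75% in Dcg > Hpo-RNAi, against 12.08% in Dcg/+, so the sum did not show the lower Lsp1gamma. Lsp1 counts per count of Lsp2 were 4.87 in Dcg > Hpo, 4.62 in Dcg > Hpo-RNAi and 4.50 in Dcg/+.

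**Figure D4:**
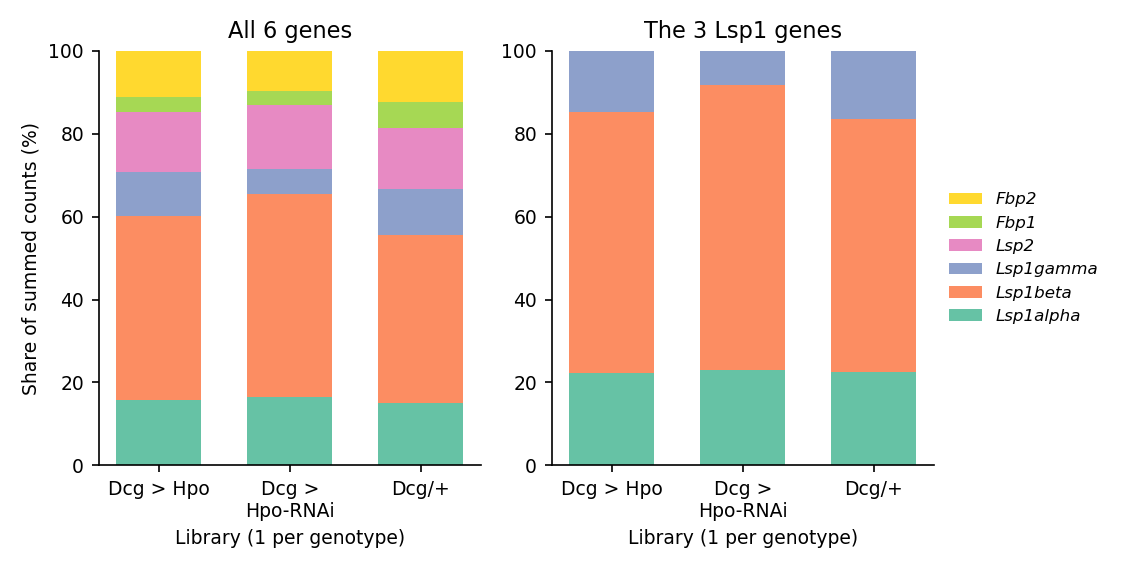
Share (%) of each gene in the summed counts of the 6 genes (left) and of the 3 Lsp1 genes (right), with 1 library per genotype. Lsp1gamma takes 8.25% of the Lsp1 counts in Dcg > Hpo-RNAi, below 14.8% in Dcg > Hpo and 16.6% in Dcg/+, and Lsp1alpha 22.2 to 22.9% in all 3 libraries.

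The 6 genes form 15 pairs, and the ratio within a pair spanned between 1.07-fold and 2.27-fold over the libraries. The steadiest pair was Lsp1alpha and Lsp2, with 1.08 counts of Lsp1alpha per count of Lsp2 in Dcg > Hpo, 1.06 in Dcg > Hpo-RNAi and 1.02 in Dcg/+. The pair of Lsp1beta and Lsp1gamma spanned most. Lsp1beta had 4.24 counts per count of Lsp1gamma in the Dcg > Hpo library and 8.34 in Dcg > Hpo-RNAi, against 3.68 in Dcg/+. Next came Lsp1beta and Fbp1, at 12.2 in the Dcg > Hpo library and 14.2 in Dcg > Hpo-RNAi, against 6.46 in Dcg/+. Receptor transcripts per 100 counts of the 4 serum protein genes were 4.27 (4.25 to 4.29) in the Dcg > Hpo library and 3.99 (3.97 to 4.01) in Dcg > Hpo-RNAi, against 7.72 (7.69 to 7.75) in Dcg/+. Fbp1 was thus low relative to the serum protein transcripts as well as to the whole library. The ratio of Lsp1gamma to Fbp1 was 2.89 in the Dcg > Hpo library and 1.70 in Dcg > Hpo-RNAi, against 1.76 in Dcg/+, as both genes were low in the knockdown library.

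**Figure D5:**
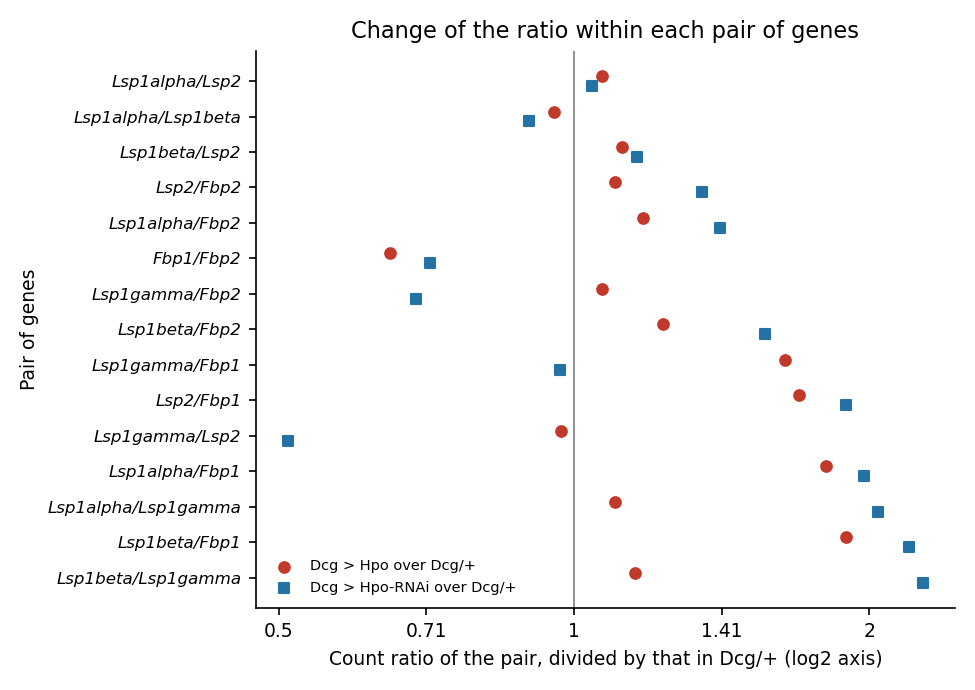
For each of the 15 pairs of genes, the count ratio within the library divided by that in Dcg/+ (log2 axis), for Dcg > Hpo (red circles) and Dcg > Hpo-RNAi (blue squares); a point at 1 means the same ratio as in Dcg/+. Pairs run from the steadiest (Lsp1alpha/Lsp2, 1.07-fold over the 3 libraries) to the most variable (Lsp1beta/Lsp1gamma, 2.27-fold).

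The order of the genes within a library was the same in all 3: Lsp1beta, Lsp1alpha, Lsp2, Fbp2, Lsp1gamma and Fbp1. A 3′ end kit gives about 1 read per transcript, so counts were compared between genes without dividing by length. Divided by transcript length, Fbp2, whose transcript of 1074 bases is the shortest, moved to second place, with 438987 counts per kb in Dcg > Hpo, 376161 in Dcg > Hpo-RNAi and 459693 in Dcg/+. Lsp1beta remained first with 689693, 750812 and 586541 counts per kb, and Fbp1 last with 44711, 42029 and 72059. Lsp1alpha and Lsp2 changed places between libraries on that scale.

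The last 48 bases of Fbp2 overlap CG42847, a gene on the same strand listed without a role. CG42847 had 45147 counts in the Dcg > Hpo library and 49056 in Dcg > Hpo-RNAi, against 32822 in Dcg/+, with ratios of 1.30 and 1.39, opposite in direction to Fbp2. Reads from the shared stretch could have been given to either gene. Summed with CG42847, Fbp2 had ratios of 0.926 (0.922 to 0.929) in the Dcg > Hpo library and 0.802 (0.799 to 0.805) in Dcg > Hpo-RNAi. Adh, the alcohol dehydrogenase that Fbp2 resembles, had 124422 counts in the Dcg > Hpo library and 52413 in Dcg > Hpo-RNAi, against 93775 in Dcg/+. Its ratios were 1.25 (1.24 to 1.26) and 0.521 (0.515 to 0.526), above Fbp2 in the overexpression and below it in the knockdown. Adh was not called with library totals, but it was called lower in Dcg > Hpo-RNAi with TMM factors, median-of-ratios factors, quantile normalization and totals without other tissues' markers. None of the 3 other measured genes of that list was called against Dcg/+ with library totals.

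Other relatives of the hexamerins were much less abundant. Of 4 genes measured in Dcg > Hpo, 2 were called higher, beside 2155 of 11834 over all genes. Both called genes were prophenoloxidases, the enzymes of melanin formation in blood cells. PPO2 had 5241 counts in the Dcg > Hpo library and 2458 in Dcg > Hpo-RNAi, against 2455 in Dcg/+, with a ratio of 2.01 (1.92 to 2.11) in Dcg > Hpo that was not called with TMM factors, median-of-ratios factors, quantile normalization or totals without other tissues' markers. PPO3 had 74, 6 and 7 counts in the same order, with a ratio of 9.98 (4.61 to 25.7) in Dcg > Hpo. The third prophenoloxidase gene, PPO1, had 5589, 1880 and 3145 counts and was not called against Dcg/+ (1.68 and 0.557). CG8100, which lies 8168 bases from Fbp1 in the annotation, had 858 counts in the Dcg > Hpo library and 1505 in Dcg > Hpo-RNAi, against 1510 in Dcg/+. It was low in Dcg > Hpo (0.536) and near Dcg/+ in Dcg > Hpo-RNAi (0.929), whereas Fbp1 was low in both. With TMM factors, median-of-ratios factors and quantile normalization CG8100 was called lower in Dcg > Hpo. The 7 listed blood cell markers other than prophenoloxidases summed to 0.0157% in Dcg > Hpo, 0.0112% in Dcg > Hpo-RNAi and 0.0128% in Dcg/+. The largest part of that sum was srp, with 1252, 1667 and 1675 counts in the same order. The lamellocyte marker atilla had 676 counts in Dcg > Hpo, 11 in Dcg > Hpo-RNAi and 16 in Dcg/+. In Dcg > Hpo, atilla and NimC1 (4.75) were called higher. Hml, eater and lz stood at 1.98, 1.91 and 2.45 there without being called with library totals. Pxn, with 542, 530 and 600 counts, and srp were below Dcg/+ in Dcg > Hpo (0.852 and 0.705).

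Ecdysone drives Fbp1 in the late larva through its receptor and a cascade of transcription factors. Of 12 cascade genes measured in Dcg > Hpo, 5 were called lower and 1 higher than in Dcg/+, with a median log2 ratio of -0.81 beside 0.09 over all genes. These 6 of 12 stand beside 41.0% of all genes called in either direction. Of 13 measured in Dcg > Hpo-RNAi, 1 was lower and 2 were higher, with a median of -0.59 beside 0.08, and 16.9% of all genes were called. Hr4, a nuclear receptor of the cascade, had 64 counts in the Dcg > Hpo library and 1691 in Dcg > Hpo-RNAi, against 785 in Dcg/+. Its ratios were 0.0769 and 2.01, on either side of 1 in the libraries where Fbp1 was low in both. Among the 6 other scalings, its call in Dcg > Hpo-RNAi was kept only with totals without CR genes. Hr46, the nuclear receptor DHR3, had 40 counts in Dcg > Hpo, 162 in Dcg > Hpo-RNAi and 261 in Dcg/+, and Eip78C, another nuclear receptor, had 220, 1356 and 1017. Eip75B and vri were also lower in Dcg > Hpo (0.453 and 0.472). The gene called higher there was ftz-f1, a competence factor of the prepupa, at 2.23, and this call was lost with TMM factors. In Dcg > Hpo-RNAi, vri was lower (0.270) and Blimp-1 higher, with 31 counts against 2 in Dcg/+. The receptor subunits were not called: EcR had ratios of 1.27 in the Dcg > Hpo library and 0.591 in Dcg > Hpo-RNAi, and usp 0.858 and 0.663. Eip74EF, an early gene of the cascade, had 1328 counts in the Dcg > Hpo library and 1765 in Dcg > Hpo-RNAi, against 2483 in Dcg/+ (0.505 and 0.662). It was called lower in Dcg > Hpo with TMM factors, median-of-ratios factors, quantile normalization and totals without other tissues' markers.

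Among 9 measured regulators of fat body genes, 2 were called in Dcg > Hpo, a smaller share than the 41.0% of all genes. Aef1, a repressor known to act on Fbp1, was lower with 37 counts, against 77 in Dcg/+, a ratio of 0.453 that was not called after quantile normalization. The NF-kB factor gene dl was higher with 422 counts, against 187, a ratio of 2.13. It was not called with TMM factors, median-of-ratios factors or quantile normalization. In Dcg > Hpo-RNAi, Hr38 was called higher with 34 counts, against 14. The GATA factor gene srp, an activator of fat body genes, had 1252 counts in the Dcg > Hpo library and 1667 in Dcg > Hpo-RNAi, against 1675 in Dcg/+, with ratios of 0.705 and 0.927. The median log2 ratio of these regulators was -0.22 in the Dcg > Hpo library and -0.11 in Dcg > Hpo-RNAi.

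Uptake ends in endosomes and granules. Of 18 genes measured for endocytosis and granule formation, 3 were called higher in Dcg > Hpo, none lower, and none was called in Dcg > Hpo-RNAi. Over all genes, 2155 of 11834 were called higher in Dcg > Hpo, a share near that of the list. In Dcg > Hpo-RNAi 16.9% of all genes were called in either direction. All 3 encode endocytic receptors of other ligands or a partner of one. Amnionless had 507 counts in the Dcg > Hpo library and 47 in Dcg > Hpo-RNAi, against 36 in Dcg/+, and Cubn 468, 67 and 102. The third, the megalin gene mgl, had 676 counts in the Dcg > Hpo library and 289 in Dcg > Hpo-RNAi, against 157 in Dcg/+. Their ratios in Dcg > Hpo were 13.3, 4.33 and 4.06. The rest of the list was mixed. Clathrin heavy chain gene Chc had ratios of 1.27 in the Dcg > Hpo library and 1.04 in Dcg > Hpo-RNAi, and the endosomal Rab5 1.11 and 0.884. In Dcg > Hpo the granule genes car and Vps16A stood at 1.67 and 1.575, and dor and lt at 1.17 and 0.924. LpR1 and LpR2 stood at 1.89 and 1.98 there, and were called higher only under some other scalings. At 1.5-fold, 7 of 18 were called in Dcg > Hpo, all higher, beside 3183 of 11834 genes called higher. The list's median was 0.34 in the Dcg > Hpo library and -0.0041 in Dcg > Hpo-RNAi on the log2 scale. Cubn and Amnionless are known from nephrocytes, and the share of such cells in the libraries was not measured.

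Other secreted products of the fat body varied among themselves. Of 16 measured genes, 4 were called higher in Dcg > Hpo and none lower, and in Dcg > Hpo-RNAi 2 were higher and 1 was lower. Over all genes, 41.0% and 16.9% were called in either direction in these comparisons, so 4 of 16 lies below that share and 3 of 16 near it. The 4 in Dcg > Hpo were all higher, and 2155 of 11834 genes were called higher there. Apoltp, which loads lipid onto lipoprotein, had 1285 counts in the Dcg > Hpo library and 208 in Dcg > Hpo-RNAi, against 354 in Dcg/+, ratios of 3.43 and 0.548. The collagen IV genes Cg25C and vkg were higher in Dcg > Hpo, at 2.33 and 2.32. In Dcg > Hpo-RNAi they parted, at 2.004 for Cg25C and 0.670 for vkg. Idgf3, a chitinase-like growth factor gene, had ratios of 2.01 in the Dcg > Hpo library and 2.45 in Dcg > Hpo-RNAi, and Nplp2, named for a neuropeptide-like precursor, 0.620 and 0.403. The calls of Idgf3 in Dcg > Hpo and of Cg25C in Dcg > Hpo-RNAi were lost under several scalings. These were TMM factors, median-of-ratios factors, quantile normalization and totals without other tissues' markers. The Cg25C call in Dcg > Hpo-RNAi was also lost with totals without the 6 genes, and its call in Dcg > Hpo with quantile normalization. The most abundant of the list was Rfabg, the apolipophorin precursor, with 240244 counts in the Dcg > Hpo library and 128000 in Dcg > Hpo-RNAi, against 140158 in Dcg/+. Its ratios were 1.62 and 0.851. Tsf1, a transferrin, was low in both libraries as Fbp1 was, at 0.589 in the Dcg > Hpo library and 0.688 in Dcg > Hpo-RNAi. It was not called with library totals, but was called lower in Dcg > Hpo with quantile normalization.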

How the data were processed

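RNA of 3 genotypes was counted in 3 libraries (QuantSeq 3′ kit), 1 per genotype, prepared and analysed for the authors by a service company. The authors deposited unnormalized counts of reads for 16509 genes. The submitters' processing notes name the build dm6, and neither aligner, counter nor strand setting is given in the sources used here. Gene positions come from the Ensembl release 115 annotation of the same assembly, where 12283 symbols matched by name.

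The 6 genes and all lists were chosen with earlier results of these data known. Named genes are the 6, up to 4 called genes of each list with the largest change, the 2 most abundant markers of a tissue and the 5 genes of nearest pattern. Eip75B, vri, ftz-f1, vkg, EcR, usp, Eip74EF, srp, Chc, Rab5, CG8100, CG42847, Adh, Rfabg, Tsf1, ninaE, atilla, Pxn, NimC1, Hml, eater, lz, aly, can, CR44510, roX1, roX2, Sxl, Yp1, Yp2, Dot, tobi, CG3523, AkhR, car, Vps16A, dor, lt, LpR1, LpR2 and PPO1 were named after their values were seen. Counts were divided by library totals, and ratios carry exact intervals from scipy 1.17.1. Medians of log2 ratios used scaled counts plus a pseudocount of 1. No test was run, since each genotype has 1 library. Steps were tested on simulated data.

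Alternatives were TMM (edgeR 4.0.16), the median of ratios of DESeq2 1.42.0, limma 3.58.1 for quantile normalization, totals without markers of other tissues, totals without the 6 genes, thresholds of 1.5-fold and 3-fold, and minimums of 0 and 50 counts. Totals without noncoding genes (symbols starting with CR), the group of genes with at least 10000 counts and the sum of Fbp2 with CG42847 were added after the data were seen. Python 3.11.15 and R 4.3.3 were used.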

Additional observations from a re-analysis of the deposited data

How the results depend on the processing

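No paired analysis was possible because each genotype has 1 library without a replicate number, and no replicate could be left out. The summed ratio of the 6 genes in Dcg > Hpo over Dcg/+ was 0.893 with TMM factors, 0.923 with median-of-ratios factors, 0.935 with quantile normalization, 0.984 without other tissues' markers, 1.012 without the 6 genes in the totals and 1.033 without CR genes. For Dcg > Hpo-RNAi over Dcg/+ the values were 0.924, 0.934, 0.936, 0.933, 0.979 and 1.021 in that order, and in the direct comparison 0.967, 0.987, 0.9995, 1.054, 1.03 and 1.01. The side of 1 on which the sum lay depended on the scaling. Of the 6 genes, 1 was called in Dcg > Hpo-RNAi (Lsp1gamma, lower) with TMM factors, with median-of-ratios factors and without other tissues' markers. At 1.5-fold 1 was called in Dcg > Hpo, 2 in Dcg > Hpo-RNAi and 1 in the direct comparison. Genes called overall fell to 3141 in Dcg > Hpo with at least 50 counts. In Dcg > Hpo-RNAi they numbered 978 with at least 50 counts, 3546 at 1.5-fold and 1098 at 3-fold, beside 1947 at 2-fold. Counting error is small for the 6 genes, and the spread between animals, which was not measured, limits every ratio.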

Other observations

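Genes with the nearest pattern were sought for Lsp1beta, Lsp2, Fbp1 and Fbp2, and not for Lsp1alpha or Lsp1gamma. The search covered 1167 genes with at least 1000 counts in each library, by the distance between pairs of log2 ratios to Dcg/+. With 3 libraries and so many genes, close matches are easily found, and both ratios share the Dcg/+ library. Nearest to Lsp1beta were CG8963, RpS25, RpL7, Cnx99A and RpS23, of which 3 encode ribosomal proteins, at distances up to 0.0197. Nearest to Lsp2 were CG17333, CkIIalpha, RpL29, RpS15Aa and CG11284, at up to 0.0184. Fbp2 had Irc, Arl4, CG12384, CG3164 and Arc42 within 0.0595. Fbp1 had no such close match: its nearest genes were CLS, Lsd-1, Irp-1B, Tsf1 and Eip74EF, at distances of 0.201 to 0.357. Of the genes searched for, Fbp1 also had the ratios furthest from 1, and how many genes have such ratios was not taken into account. Lsd-1 encodes a lipid droplet protein of the fat body, and it had 7312 counts in the Dcg > Hpo library and 7439 in Dcg > Hpo-RNAi, against 11167 in Dcg/+, with ratios of 0.618 and 0.621.

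Lsp1alpha is the X-linked gene of the 6, and transcripts tied to sex and to the dosage of the X chromosome differed between the libraries. Both manipulated libraries lay below Dcg/+ for roX1 and roX2 and above it for Sxl. For Yp3 they parted, with the overexpression library below Dcg/+ and the knockdown library above it. The noncoding RNA gene roX1, expressed in males, had 2514 counts in the Dcg > Hpo library and 3266 in Dcg > Hpo-RNAi, against 7467 in Dcg/+, with ratios of 0.318 (0.304 to 0.332) and 0.408 (0.391 to 0.425). roX2 had 8, 13 and 28 counts in that order. Sxl, the switch gene of female development, had 2292 counts in the Dcg > Hpo library and 1773 in Dcg > Hpo-RNAi, against 1162 in Dcg/+, with ratios of 1.86 and 1.42. Yp3, a yolk gene of females, had 122 counts in Dcg > Hpo, 3918 in Dcg > Hpo-RNAi and 1452 in Dcg/+, with ratios of 0.0793 and 2.51. The other yolk genes had few counts and did not follow Yp3. Yp1 had 41, 52 and 28 counts in the same order (ratios 1.38 and 1.73), and Yp2 62, 37 and 52 (1.125 and 0.663). Neither was called against Dcg/+. Lsp1alpha counts per count of the autosomal Lsp2 were 1.08, 1.06 and 1.02 in the same order. The sex of the larvae was not given in the labels, and its part in the levels of the 6 genes was not tested.

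Neighbouring genes within 10 kb in the annotation were also read out. The noncoding gene CR44510, 143 bases past the end of Lsp1gamma on the same strand, had 272 counts in the Dcg > Hpo library and 185 in Dcg > Hpo-RNAi, against 121 in Dcg/+. Its ratio in Dcg > Hpo-RNAi was 1.43 (1.13 to 1.81), where that of Lsp1gamma was 0.526.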
